A study of Mus musculus with 6 samples.

Results

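The 10 genes described here carry glucose into the cell and through the first steps of glycolysis: the glucose transporter genes Slc2a1 (GLUT1) and Slc2a3 (GLUT3), the hexokinase genes Hk1, Hk2 and Hk3, the phosphofructokinase genes Pfkl, Pfkm and Pfkp, the glucose phosphate isomerase gene Gpi1 and the aldolase gene Aldoa. They were chosen by symbol, for their function, and all 10 were found among the 23951 genes of the count table. They were measured by total RNA sequencing of haematopoietic stem cells (HSCs) from the fetal liver of C57BL/6 mice, in 3 wild type (WT) libraries and 3 libraries with a knockout (KO) of Uqcrfs1. Uqcrfs1 encodes RISP, the Rieske subunit of complex III in the mitochondrial respiratory chain. The sources used here do not give the form of the deleted allele, any Cre driver, the age of the embryos or whether libraries came from separate embryos. The p-values therefore measure the spread between libraries alone, part of which may be technical. The comparison of KO with WT asks which of the parallel isoenzymes of upper glycolysis carries most of the transcript, and which of them differs in the KO libraries.

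Glucose enters blood cells through facilitative transporters of the SLC2A family and is trapped by hexokinase as glucose 6-phosphate. The isomerase then gives fructose 6-phosphate, phosphofructokinase commits it to glycolysis, and aldolase splits the product into triose phosphates. Several of these steps have isoenzymes from separate genes: GLUT1 is widely expressed and GLUT3 has a high affinity for glucose, HK1 is the common form of hexokinase and HK2 the inducible one, and the PFKL, PFKM and PFKP subunits, named after liver, muscle and platelet, assemble into phosphofructokinase tetramers.

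The WT libraries held 10191354 to 13189329 counts and the KO libraries 12020128 to 14590844. Uqcrfs1 itself had 771 to 1320 counts per WT library and 39 to 60 per KO library, so each library matched its label by this gene. The libraries differed in sex-linked transcripts. Xist, a transcript of female cells, had 13062, 5842 and 8988 counts in WT replicates 1 to 3. In KO replicates 1 to 3 it had 13480, 0 and 16004. Y-linked counts were 13, 836 and 1022 in WT and 0, 2358 and 604 in KO, in the same order. WT replicates 2 and 3 and KO replicate 3 thus held transcripts of both sexes. KO replicate 1 had no Y-linked counts and KO replicate 2 no Xist counts. The 13 stem and progenitor markers, among them Kit, Cd34 and Mecom, were all detected and summed to 2626 to 3142 CPM in WT (CPM are counts divided by the scaled library size, per 1000000) and 2330 to 2460 CPM in KO. Of these 13, 4 were lower in KO and 0 higher (edgeR), against 4.99% lower and 6.41% higher among all genes tested. Markers of other fetal liver cells were present too. The 10 erythroid markers summed to 290 to 596 CPM in WT and 84.4 to 137 CPM in KO, and 5 of 8 tested were lower. The count table listed the globin genes Hba-a1 and Hbb-b1 at 0 in every library. The deposited RPKM table listed Hbb-b1 at 373, 20.2 and 0.00120 in WT and at 48.5, 0.000942 and 234 in KO, so the tables differ for this gene and its groups overlap. The 10 macrophage markers summed to 176, 78.4 and 948 CPM in WT replicates 1 to 3 and to 35.3 to 81.1 CPM in KO, with 0 of 10 past the threshold, and the 6 endothelial markers to 362, 201 and 995 CPM and to 124 to 171 CPM, with 1 of 6 lower. WT replicate 3 thus stood apart in both. The 10 granulocyte markers summed to 556, 523 and 401 CPM in WT and to 227 to 261 CPM in KO, with no overlap and 1 of 10 lower, Mpo. The 7 hepatoblast markers summed to 58.9 to 129 CPM in WT and 26.3 to 68.6 CPM in KO, with 2 of 7 lower. In bulk RNA, fewer cells of a type and less RNA per cell cannot be told apart.

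RefSeq start windows, which run from 250 bases before a gene's start to 50 bases after it (build GRCm38.p6), were at hand for 9 of the 10 genes, all but Slc2a3. The stretches below lie upstream of starts of Hk2, Pfkl, Pfkp and Aldoa, whose transcripts differed between KO and WT, and, for comparison, of Slc2a1 and Hk1, whose transcripts did not pass the test. Bases in annotated exons are left out. Capitals mark ACGTG or GCGTG on either strand (CACGT and CACGC when read on the other), the core of the element bound by hypoxia-inducible factors.
Hk2 (chr6:82774455-82774604, minus strand): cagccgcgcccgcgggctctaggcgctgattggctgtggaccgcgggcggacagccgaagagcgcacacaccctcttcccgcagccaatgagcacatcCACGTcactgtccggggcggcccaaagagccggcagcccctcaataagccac
Pfkl (chr10:78009808-78009957, minus strand): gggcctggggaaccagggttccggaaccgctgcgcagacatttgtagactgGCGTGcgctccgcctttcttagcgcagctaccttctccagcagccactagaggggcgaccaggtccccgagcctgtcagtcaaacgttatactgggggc
Pfkp (chr13:6648778-6648921, minus strand): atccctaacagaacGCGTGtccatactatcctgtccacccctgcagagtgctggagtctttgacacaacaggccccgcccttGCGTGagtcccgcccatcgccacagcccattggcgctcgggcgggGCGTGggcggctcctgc
Aldoa, start 1 (chr7:126800448-126800504, minus strand): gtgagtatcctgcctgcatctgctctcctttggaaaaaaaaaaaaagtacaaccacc
Aldoa, start 2 (chr7:126799255-126799404, minus strand): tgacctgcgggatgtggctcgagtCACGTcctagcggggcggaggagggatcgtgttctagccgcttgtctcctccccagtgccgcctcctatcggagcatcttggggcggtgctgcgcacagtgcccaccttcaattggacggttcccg
Slc2a1 (chr4:119108595-119108710, plus strand): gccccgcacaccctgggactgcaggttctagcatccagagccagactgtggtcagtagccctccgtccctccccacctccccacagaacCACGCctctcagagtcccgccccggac
Hk1, start 1 (chr10:62379909-62380058, minus strand): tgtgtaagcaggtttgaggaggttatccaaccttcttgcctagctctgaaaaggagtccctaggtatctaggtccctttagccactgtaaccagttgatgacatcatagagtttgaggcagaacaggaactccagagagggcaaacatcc

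The printed stretches hold 1 match in Hk2, 1 in Pfkl, 3 in Pfkp, 0 at start 1 and 1 at start 2 of Aldoa, 1 in Slc2a1 and 0 at start 1 of Hk1. Not printed are the third start of Aldoa, which lies close to start 2, and the second start of Hk1, whose upstream bases are mostly exonic. The full window of the third Aldoa start holds 1 ACGTG, and that of the second Hk1 start holds 2 ACGTG and 3 GCGTG. Over the full windows, ACGTG was found in 8 of the 15 windows of these genes and in 19.6% of the 32851 mouse windows of the same length, and GCGTG in 6 of 15 and in 32.4%. Windows of 1 gene can overlap, so they are not independent. The second start of Hk1, and windows of Slc2a1, Hk3 and Pfkm, also held ACGTG, so genes with and without a change in KO held it. The motif TGATGNAA, a core of the element bound by ATF4 and its partners, was in 0 of 15 windows and in 3.97% of all, and CACGTG, which contains ACGTG, in 1 of 15 and in 7.15%. These matches are descriptions of letters in the windows, and which start was in use in these cells was not measured.

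In KO, 5 of the 10 genes rose and 0 fell at an adjusted p under 0.05 (edgeR, adjusted over all 12204 genes tested). They were Slc2a3, Hk2, Pfkl, Pfkp and Aldoa, with folds of 1.30 in Aldoa to 1.86 in Pfkp. Across all genes tested, 11.4% passed in either direction, 6.41% were higher and 4.99% lower. All 10 genes passed the filter on low counts. The median log2 fold change was 0.33 over the 10 genes and -0.02 over all genes tested. In 7 of the 10, every KO library lay above every WT library in CPM, a pattern seen in 15.7% of the genes tested. The plot of CPM by library shows these 7, and the overlap of the groups in Hk1, Hk3 and Pfkm.

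**Figure D1:**
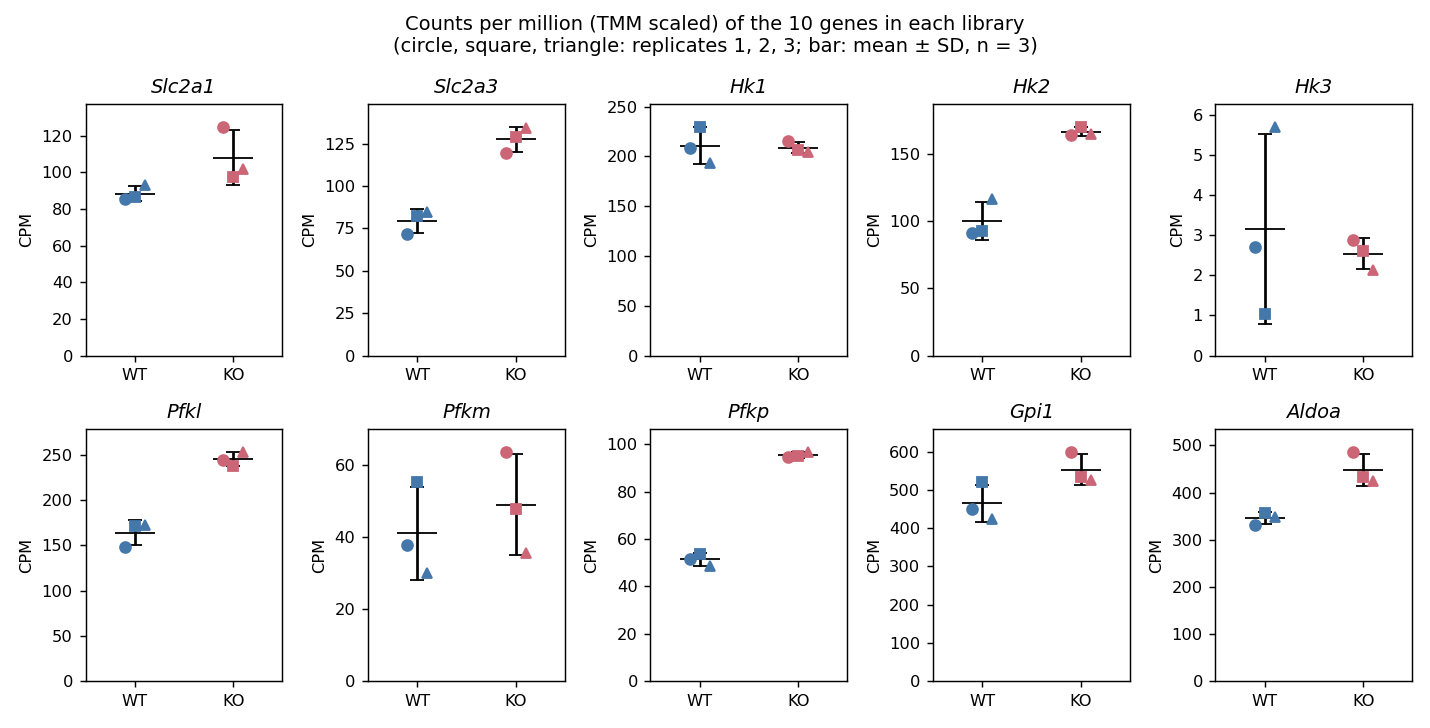
CPM of each of the 10 genes (vertical axes, each from 0) in the 3 WT libraries (blue) and the 3 KO libraries (red), with symbols for replicates 1 to 3 and bars for the mean ± SD. The groups do not overlap for Slc2a1, Slc2a3, Hk2, Pfkl, Pfkp, Gpi1 and Aldoa.

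Of the glucose transporters, Slc2a3 rose and Slc2a1 did not pass the test. Slc2a3 stood at 71.6, 82.4 and 84.4 CPM in WT replicates 1 to 3 and at 119, 129 and 134 CPM in KO replicates 1 to 3. The groups lay far apart compared with the spread within them. The fitted log2 fold change was 0.68 with a standard error (SE) of 0.15 (edgeR, adjusted p = 0.00399), a fold of 1.60. The call held whichever library was left out, with an adjusted p of at most 0.0289, reached without KO replicate 3 (edgeR).

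Slc2a1 stood at 85.7, 86.3 and 93.1 CPM in WT and at 125, 97.3 and 102 CPM in KO. Every KO library lay above WT, but KO replicate 1 was far above the other KO libraries. On the log2 scale the difference was 0.29 (SE 0.15, 95% interval -0.03 to 0.61; edgeR, adjusted p = 0.246), and 0.17 without KO replicate 1. Fetal red cells also carry GLUT1, and the erythroid markers were lower in KO, from 290 to 596 CPM to 84.4 to 137 CPM. The part of erythroid cells in the Slc2a1 values was not tested.

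Among the hexokinases, Hk2 rose while Hk1 hardly differed. Hk2 stood at 91.0, 92.5 and 116 CPM in WT and at 164, 170 and 164 CPM in KO. WT replicate 3 was the highest WT library, and still lay well under all KO libraries. The log2 fold change was 0.73 (SE 0.14; edgeR, adjusted p = 0.00139), a fold of 1.66, and ranged from 0.67 to 0.86 when 1 library was left out.

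Hk1 stood at 209, 230 and 194 CPM in WT and at 215, 206 and 205 CPM in KO. All KO values lay within the range of the WT libraries. The log2 fold change was -0.01 (SE 0.11, 95% interval -0.25 to 0.22; edgeR, adjusted p = 0.957), an interval that does not reach the fitted change of Hk2. The antisense gene Hk1os overlaps 157 exonic bases of Hk1 in the GENCODE annotation and had 4 to 64 counts per library, against 2085 to 3099 for Hk1.

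Hk3, a hexokinase of myeloid cells, was close to the limit of detection, with 27, 11 and 74 reads in the WT libraries and 40, 39 and 27 in the KO libraries. The mean was 3.15 ± 2.37 CPM for WT and 2.54 ± 0.381 CPM for KO (SD, n = 3). The fitted change was -0.31 on the log2 scale (SE 0.99; edgeR, adjusted p = 0.892), and 0.45 without WT replicate 3, and these data hold no direction for it. WT replicate 3 was the library highest in Hk3 and in the macrophage markers, at 948 CPM, and WT replicate 2 the WT library lowest in both, at 78.4 CPM for the markers. In the granulocyte markers the order was another, with WT replicate 3 the lowest WT library at 401 CPM. The part of macrophages and granulocytes in the Hk3 values was not tested.

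Of the phosphofructokinases, Pfkl and Pfkp rose and Pfkm did not pass the test. Pfkp stood at 51.5, 53.8 and 48.7 CPM in WT and at 94.8, 95.0 and 96.8 CPM in KO, with the KO libraries close together on this scale. Its log2 fold change was 0.90 (SE 0.16; edgeR, adjusted p = 0.000997), a fold of 1.86 and the largest fitted rise among the 10 on counts. It ranged from 0.86 to 0.93 when 1 library was left out. On the log2(RPKM + 1) scale with limma it was 0.70 (adjusted p = 0.0361), under the 0.74 of Hk2. Pfkp shares 748 exonic bases with Pitrm1, a mitochondrial protease gene on the opposite strand, which stood at 177 ± 34.1 CPM for WT and 223 ± 26.2 CPM for KO (SD, n = 3). Since the sources used here do not give the strand setting of the counting, reads of the shared bases cannot be assigned with certainty.

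Pfkl stood at 148, 171 and 173 CPM in WT and at 245, 238 and 254 CPM in KO. The lowest KO library was well above the highest WT library. The log2 fold change was 0.58 (SE 0.12; edgeR, adjusted p = 0.00235), a fold of 1.50, and was 0.46 when transcript length and GC content entered the fit as offsets (adjusted p = 0.0165).

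Pfkm varied more between libraries than between groups. It stood at 37.8, 55.3 and 29.9 CPM in WT and at 63.7, 47.7 and 35.6 CPM in KO. The log2 fold change was 0.26 (SE 0.25, 95% interval -0.27 to 0.78; edgeR, adjusted p = 0.580), and moved between 0.02 without KO replicate 1 and 0.54 without WT replicate 2. A change as large as that of Pfkl lies inside this interval, so a like rise cannot be told from none at this spread. Pfkm shares 341 exonic bases with Gm26513, a gene annotated on the same strand that was not among the genes counted. Reads of these bases cannot be assigned with certainty.

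The 2 steps read here from 1 gene each had the highest levels. Aldoa stood at 332, 357 and 347 CPM in WT and at 486, 434 and 424 CPM in KO, with no overlap. Aldoa rose by 0.38 on the log2 scale (SE 0.10; edgeR, adjusted p = 0.0201), a fold of 1.30. The edgeR call was lost without WT replicate 1 (adjusted p = 0.0710), KO replicate 1 (adjusted p = 0.0916) or KO replicate 2 (adjusted p = 0.0622), and with limma on log2(RPKM + 1) (adjusted p = 0.0664). The retrogene copies Aldoart1 and Aldoart2 together had 2 counts, in KO replicate 2.

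Gpi1 stood at 451, 520 and 424 CPM in WT and at 600.2, 535 and 527 CPM in KO. The groups did not overlap, but WT replicate 2 lay just under KO replicate 3. The log2 fold change was 0.25 (SE 0.11, 95% interval 0.03 to 0.47), and did not pass after adjustment (edgeR, adjusted p = 0.135). The smallest adjusted p over 15 alternatives was 0.0640, without WT replicate 2. Gpi1 shares 741 exonic bases with Gm26762, a non-coding gene on the opposite strand that was not among the genes counted. Reads of these bases cannot be assigned with certainty. The plot of log2 fold changes sets the 10 intervals side by side.

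**Figure D2:**
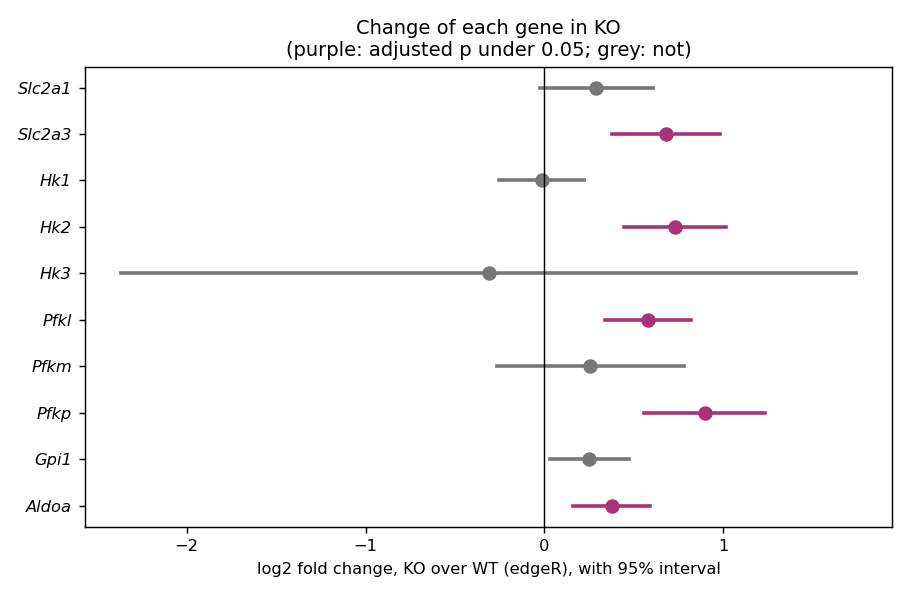
Fitted log2 fold change of KO over WT (horizontal axis) of each of the 10 genes, with its 95% interval from the edgeR fit. The 5 genes past the threshold (purple) lie between 0.38 and 0.90, and the interval of Hk3 is the widest, from -2.37 to 1.74.

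Levels of different genes were compared per length, on the deposited RPKM (reads scaled by transcript length and library size). In order of the WT mean, Aldoa stood at 200.2 RPKM, Gpi1 at 129, Pfkl at 38.0, Hk1 at 37.6, Slc2a1 at 29.7, Slc2a3 at 23.9, Hk2 at 15.3, Pfkp at 14.3, Pfkm at 11.5 and Hk3 at 0.958. Aldoa, Gpi1 and Hk3 held the first, second and last place in each library. Pfkl and Hk1 exchanged places between WT libraries, as did Hk2, Pfkp and Pfkm, so these neighbours do not differ beyond their spread. In KO, Pfkl took the third place in each library at 55.8 ± 1.45 RPKM, and Hk1 the fifth at 38.2 ± 1.98 RPKM (SD, n = 3 each).

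The leading transporter was not the same in all libraries. Slc2a1 made up 57.4, 52.6 and 56.3% of the summed RPKM of Slc2a1 and Slc2a3 in WT, and 51.8, 45.5 and 47.7% in KO. Slc2a1 thus led in all 3 WT libraries and in KO replicate 1, and Slc2a3 in KO replicates 2 and 3. The mean share of Slc2a3 went from 44.6% to 51.7%, a difference of 7.11 percentage points (exact permutation test, two-sided, p = 0.1; 0.16 adjusted over 8 shares). With 3 libraries against 3, 0.1 is the smallest p this test can give. On CPM per kilobase of the longest GENCODE transcript the difference was 6.89 points with the groups overlapping (exact permutation p = 0.2). The sum of both transporters was 53.7 ± 2.63 RPKM in WT and 74.8 ± 3.82 RPKM in KO (SD, n = 3 each).

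Hk1 was the main hexokinase transcript in every library. It made up 72.6, 72.7 and 64.2% of hexokinase RPKM in WT and 58.8, 57.0 and 59.8% in KO, with no overlap. Hk2 held 26.0, 26.4 and 32.8% in WT and 39.5, 41.2 and 39.4% in KO. The share of Hk2 was 11.7 points higher in KO on RPKM and 11.3 points on CPM per kilobase (exact permutation test, p = 0.1 on both). Hk3 held at most 2.96%. The sum of the 3 hexokinases was 53.9 ± 0.533 RPKM in WT and 65.3 ± 2.13 RPKM in KO (SD, n = 3 each).

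Pfkl was the main phosphofructokinase transcript, with 57.2 to 63.7% of the summed RPKM in WT and 56.6 to 63.5% in KO. Its share thus did not move beyond the spread of the libraries (exact permutation p = 0.7), while its level rose. The share of Pfkp went from 22.5 ± 1.78% to 25.3 ± 1.33% (SD, n = 3 each), with no overlap (exact permutation p = 0.1). The groups all but touched, with WT replicate 1 at 24.2% and KO replicate 3 at 24.3%. On CPM per kilobase the Pfkp share went from 17.6 ± 1.30% to 21.8 ± 0.995% (SD, n = 3 each), also with no overlap (exact permutation p = 0.1). The share of Pfkm on RPKM was 13.5 to 22.1% in WT and 12.2 to 18.7% in KO. The order of Pfkm and Pfkp in WT depends on the scale, since Pfkm exceeded Pfkp in WT replicate 2 on RPKM and also in WT replicate 1 on CPM per kilobase. The sum of the 3 genes was 63.8 ± 6.62 RPKM in WT and 94.3 ± 5.85 RPKM in KO (SD, n = 3 each), 1.48-fold as high and the largest of the 3 family ratios, against 1.39 for the transporters and 1.21 for the hexokinases.

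**Figure D3:**
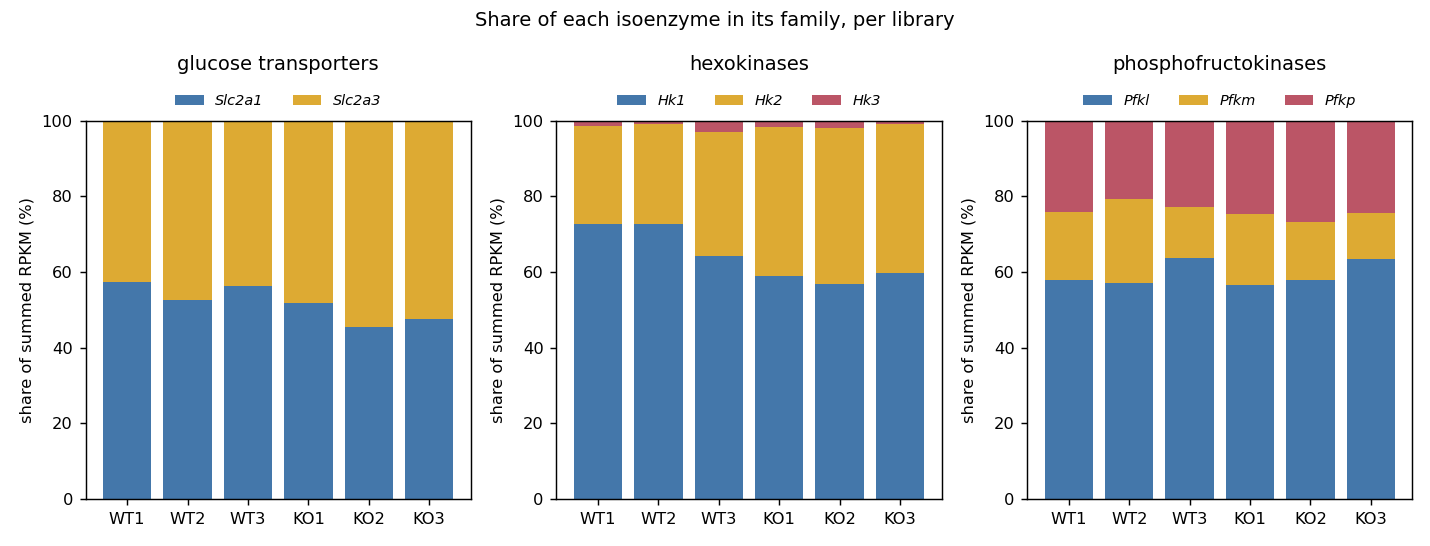
Share of each isoenzyme in the summed RPKM of its family (vertical axes, percent) in each of the 6 libraries. Hk1 and Pfkl lead in all 6, and the Hk2 share is 39.4 to 41.2% in KO against 26.0 to 32.8% in WT.

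A ratio of counts within a library does not depend on library scaling, and gene length cancels when groups are compared. The log2 ratio of Hk2 to Hk1 was -1.20, -1.31 and -0.74 in WT and -0.39, -0.28 and -0.32 in KO, a ratio higher in KO by 0.75 on the log2 scale, or 1.69-fold. The log2 ratio of Pfkp to Pfkl was -1.52, -1.67 and -1.83 in WT and -1.37, -1.32 and -1.39 in KO, a difference of 0.31. On counts neither ratio overlapped between the groups (exact permutation test, two-sided, p = 0.1 each; 0.25 adjusted over 5 ratios). On the deposited RPKM (+ 0.1) the Hk2 to Hk1 difference was 0.75 with no overlap. The Pfkp to Pfkl ratio was then -1.26, -1.46 and -1.48 in WT and -1.19, -1.11 and -1.38 in KO, a difference of 0.17 with KO replicate 3 under WT replicate 1 (exact permutation p = 0.2). The ratio of Slc2a3 to Slc2a1 was higher in KO by 0.40 on the log2 scale (p = 0.2 in the exact test), with KO replicate 1, at -0.07, inside the range of the WT libraries. The ratio of Pfkm to Pfkl differed by -0.32 (exact permutation p = 0.5), within its spread.

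**Figure D4:**
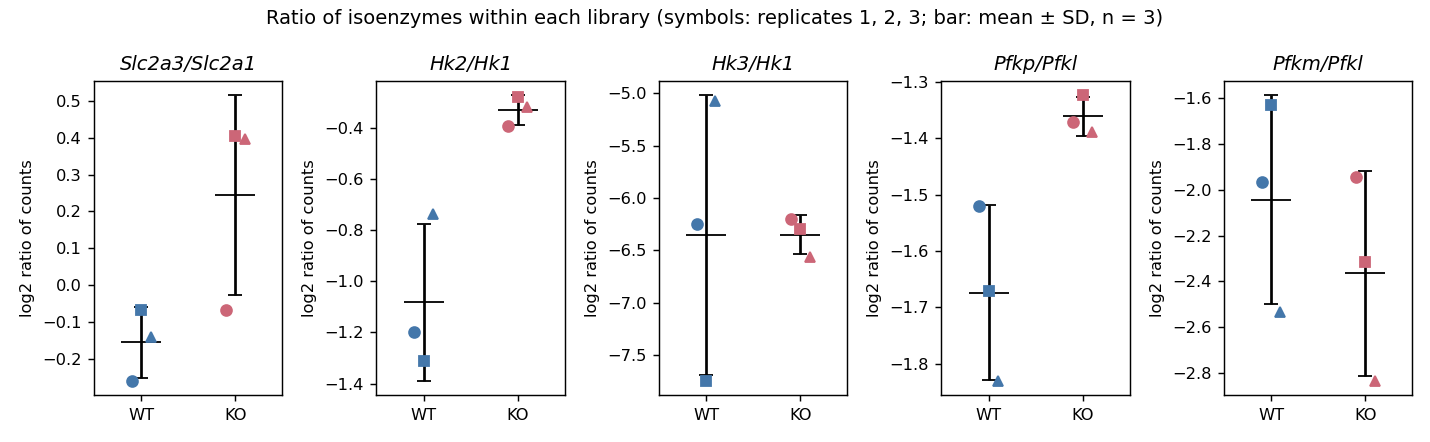
Log2 ratio of counts of isoenzyme pairs (vertical axes, not from 0) in the 3 WT (blue) and 3 KO (red) libraries, with bars for the mean ± SD. On counts the groups are separate for Hk2 to Hk1 and Pfkp to Pfkl, and overlap for the other 3 pairs.

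Beyond these steps, 72 genes of glycolysis, its regulators and its branches were in the table under the symbols listed, of which 59 were tested, 5 rose and 3 fell. These are 8.47% and 5.08% of those tested, near the 6.41% and 4.99% of all genes tested, and so say little about the lists as a whole. In lower glycolysis, 2 of 13 rose (15.4%, against 6.41% of all genes tested) and 0 fell, with a median log2 fold change of 0.25. Pkm, the pyruvate kinase gene, stood at 643 ± 32.6 CPM for WT and 822 ± 28.3 CPM for KO (SD, n = 3 each; log2 fold change 0.35, edgeR, adjusted p = 0.0168). Pgam1, a phosphoglycerate mutase gene, rose by 0.34 (edgeR, adjusted p = 0.0486), close to the threshold. Its call was lost in 13 of 15 alternatives, and that of Pkm in 5, among them the fits that left out KO replicate 1, KO replicate 2 or WT replicate 1, where 0 genes of the list passed. Ldha, the lactate dehydrogenase A gene, stood at 511 and 531 CPM (edgeR, adjusted p = 0.796), and Gapdh at 421 and 442 CPM (adjusted p = 0.777), with the uncertainty that Gapdh has many processed copies.

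Among glycolytic flux regulators, 2 of 11 tested fell (18.2%, against 4.99% of all genes tested) and 0 rose. Txnip and Arrdc4 encode alpha-arrestins that lower glucose uptake, in part by drawing glucose transporters from the cell surface, and whose transcription follows glucose 6-phosphate through the factors MondoA and MLX. Txnip stood at 381, 301 and 286 CPM in WT and at 186, 163 and 173 CPM in KO. Arrdc4 stood at 46.6, 37.6 and 32.7 CPM in WT and at 13.8, 12.0 and 15.9 CPM in KO. In both, every KO library lay below every WT library in CPM, a pattern seen in 14.5% of the genes tested. Txnip fell by 0.89 on the log2 scale (SE 0.12; edgeR, adjusted p = 6.63e-05) and Arrdc4 by 1.48 (SE 0.27; adjusted p = 0.00111), and both passed in all 15 alternatives. Mlxip, the MondoA gene, stood at 104 ± 15.2 CPM for WT and 86.2 ± 9.82 CPM for KO (SD, n = 3 each; edgeR, adjusted p = 0.324). Pfkfb3, which makes the activator of phosphofructokinase, stood at 31.4 and 38.8 CPM (edgeR, adjusted p = 0.444).

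Of 6 transcription factors that act on glycolytic genes or amino acid supply, 2 rose (33.3%, against 6.41% of all genes tested). Mycn rose by 0.51 (SE 0.11; edgeR, adjusted p = 0.00405) from 308 ± 6.00 CPM, and Atf4 by 1.95. The Mycn call was lost with limma on log2(RPKM + 1) (adjusted p = 0.0996) and held in the other 14 alternatives. Hif1a stood at 174 and 163 CPM and Myc at 108 and 127 CPM (edgeR, adjusted p = 0.713 and 0.481). Arnt, which encodes a partner of hypoxia-inducible factors, stood at 79.1 and 56.2 CPM (edgeR, adjusted p = 0.0762). Every KO library lay below every WT library for Arnt, a pattern seen in 14.5% of the genes tested. None of the 6 passed as lower in the main fit, and 1 did without WT replicate 2.

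In the 3 branches that leave upper glycolysis, 2 of 22 tested genes passed (9.09%), near the 11.4% of all genes tested. Of 7 pentose phosphate genes 0 rose and 1 fell, with a median of -0.24. It was G6pdx, the glucose 6-phosphate dehydrogenase gene that opens the branch, which fell by 0.65 from 58.5 ± 5.38 to 37.3 ± 3.31 CPM (SD, n = 3 each; edgeR, adjusted p = 0.0356), a call lost whichever library was left out and with limma on log2(RPKM + 1). The transketolase gene Tkt stood at 413 and 399 CPM (edgeR, adjusted p = 0.855). Of 5 hexosamine genes 1 rose, Gfpt1, which encodes the first enzyme of that branch, from 84.6 ± 13.5 to 124 ± 21.2 CPM (SD, n = 3 each; edgeR, adjusted p = 0.0297). Its call was lost without WT replicate 2, WT replicate 3 or KO replicate 2, and with limma on log2(RPKM + 1). Of 10 glycogen genes 0 passed, with a median of -0.27, and the glycogen phosphorylase gene Pygl stood at 124 and 89.5 CPM (edgeR, adjusted p = 0.0573). Of the 7 tested genes of other glucose transporters and sugar enzymes 0 passed. Of that last list the aldolase gene Aldoc was nearest, at 12.4 ± 3.69 CPM for WT and 3.54 ± 2.68 CPM for KO (SD, n = 3 each; edgeR, adjusted p = 0.0515). Slc2a9, a transporter gene of the same family, stood at 17.9 ± 8.48 CPM for WT and 10.5 ± 3.72 CPM for KO (SD, n = 3 each). The highest of that list in mean CPM was Adpgk, the gene of an ADP-dependent glucokinase. It stood at 26.9 ± 9.18 CPM for WT and 39.3 ± 2.87 CPM for KO (SD, n = 3 each; edgeR, adjusted p = 0.196). The Adpgk groups overlapped in CPM and not on RPKM. The plot of pathway genes shows where those past the threshold lie.

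**Figure D5:**
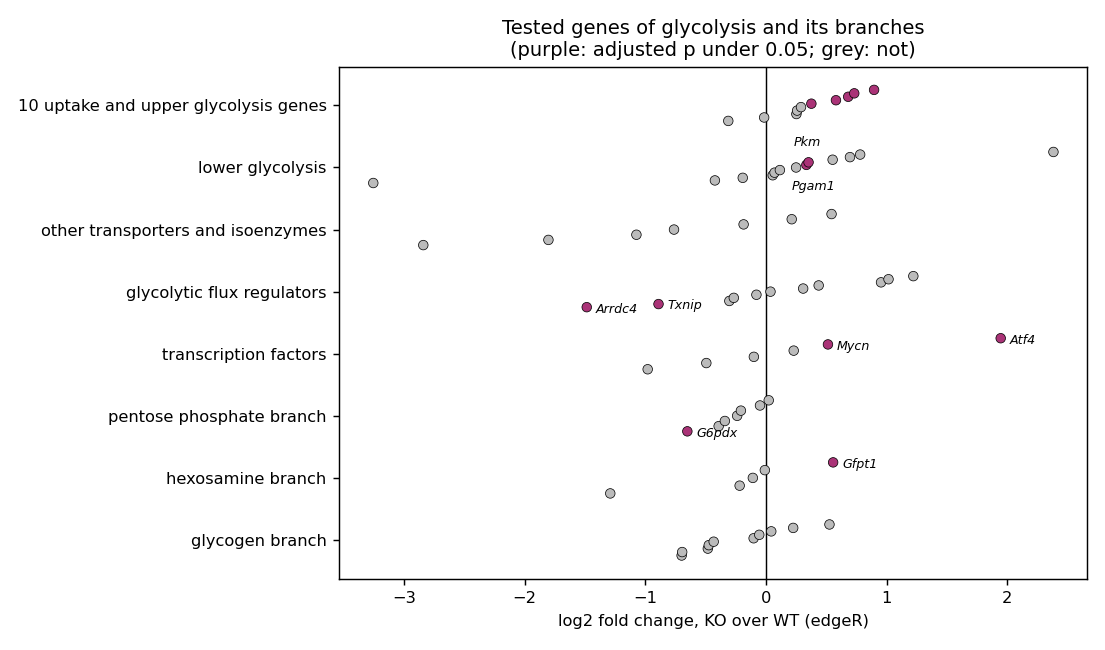
Log2 fold change of KO over WT (horizontal axis) of the tested genes of each list (rows), with genes past the threshold in purple. Of the 10 uptake and upper glycolysis genes 5 are purple and all 5 lie right of 0, and the lists below hold 5 higher and 3 lower genes.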

How the data were processed

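The authors deposited 1 table of read counts and 1 table of RPKM values per gene symbol, with 1 column per library. The deposited counts are whole and not normalized. TopHat and Cufflinks were used with the mm9 build, per the submitters' processing notes. The sources used here do not give versions, the read counter, the annotation or the strand setting. Per the labels' protocols, a low-input kit that marks strand made the libraries from total RNA. RPKM did not follow from counts by 1 length per gene: the length that joins both tables varied 1.39-fold between libraries for Pfkp, 2.16-fold for Hk3 and at most 1.15-fold for the other 8 genes.

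Counts were tested with edgeR 4.0.16 (R 4.3.3; TMM scaling, filterByExpr, robust quasi-likelihood F test, group only, Benjamini-Hochberg over 12204 genes, threshold 0.05), checked on simulated counts. CPM used TMM library sizes. The SE was the fitted log2 value over the square root of F. Shares and log2 ratios (counts + 0.5) were tested by exact permutation of libraries, two-sided. Alternatives used DESeq2 1.42.0, limma 3.58.1 (voom, and log2(RPKM + 1)), other scalings, no filter, length and GC offsets from GENCODE M21 transcripts, a replicate block, and each library left out. A Y-linked covariate was added after seeing the data. Replicate pairs differed beyond counting noise (chi-square 21.7 to 43.1 per degree of freedom). The genes, lists and tests were chosen with earlier results of these data known. Named were Uqcrfs1, the 10 genes, each pathway gene past the threshold and some of the genes of each list with the highest mean CPM. The edgeR intervals rest on the spread between libraries.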

Additional observations from a re-analysis of the deposited data

How the results depend on the processing

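The count of genes called across the transcriptome was 583 with limma on log2(RPKM + 1), against 1391, and 712 to 1263 when 1 library was left out (lowest without KO replicate 2, and 833 without KO replicate 3). Of the 10 uptake and upper glycolysis genes, 4 or 5 were higher and 0 lower in all 15 alternatives, and Slc2a3, Hk2, Pfkl and Pfkp passed in each. Of the pathway lists, 2 genes were higher with limma on log2(RPKM + 1) and 2 to 4 when 1 library was left out. Lower genes numbered 5 with upper quartile scaling, DESeq2, limma-voom and the replicate block, 6 with no filter, and 2 to 4 when 1 library was left out. Changes of sign were seen in values that did not pass the test. With limma on log2(RPKM + 1), Hk1 stood at 0.023. Leaving out 1 library, the log2 fold change of Hk1 was -0.073 to 0.052 (above 0 without WT replicate 2, and at 5.55e-05 without KO replicate 3), and that of Hk3 -0.729 to 0.445 (above 0 without WT replicate 3). The Hk3 share then differed by -0.751 to 0.236 points (above 0 without WT replicate 3), the Pfkl share by -2.41 to 1.72 points (above 0 without KO replicate 1, KO replicate 2 or WT replicate 3), and the log2 ratio of Hk3 to Hk1 by -0.692 to 0.643 (under 0 without KO replicate 1, KO replicate 2 or WT replicate 2). That ratio differed by -0.0083 with a pseudocount of 1 and -0.0020 on RPKM. The cause was not tested. Deviations of same-numbered libraries from their group means correlated at 0.0276, 0.0115 and -0.0003, so no shared effect of the replicate number was seen. The sources used here do not say whether same-numbered libraries were paired, and these values cannot decide it. With the replicate block, 1341 genes were called and the 5 rises of the 10 genes held. No scaling moved the median of all genes by over 0.1 on the log2 scale.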

Other observations

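A few genes of lower glycolysis differed in level between most libraries of the groups and yet did not pass the threshold. They were picked after their values were seen. Eno2, an enolase gene best known from neurons, had 9, 14 and 2 reads in the WT libraries and 43, 57 and 69 in the KO libraries, 2.38 higher on the log2 scale (SE 1.12; edgeR, adjusted p = 0.188). Eno1, another enolase gene, had 204, 162 and 238 reads in WT and 397, 482 and 337 in KO (log2 fold change 0.70, edgeR, adjusted p = 0.115). The Eno1 groups did not overlap in RPKM or in CPM, where 15.7% of the genes tested had every KO library above every WT library. Its WT mean was 18.0 CPM but 66.4 RPKM, which its longest transcript of 2027 bases does not join. The count and RPKM levels thus differ for Eno1. Slc16a3, which encodes the lactate exporter MCT4, had 80, 98 and 151 reads in the WT libraries and 215, 175 and 284 in the KO libraries (log2 fold change 0.78, edgeR, adjusted p = 0.228). In CPM its groups all but touch, with WT replicate 3 at 11.64 and KO replicate 2 at 11.65, and on RPKM they overlap, at 4.64 and 4.51. Pklr, the pyruvate kinase gene of liver and red cells, had 104, 67 and 123 reads in the WT libraries and 1, 0 and 34 in the KO libraries (edgeR, adjusted p = 0.0999), beside erythroid marker sums of 596, 290 and 304 CPM in WT and 84.4, 127 and 137 CPM in KO. The part of erythroid cells in the Pklr values was not tested.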
